A study of Mus musculus with 24 samples.

Results

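Long-term haematopoietic stem cells (LTHSC) and megakaryocyte progenitors (MkP) of the VF mouse line were compared in 6 RNA libraries, 3 of each population, out of the 24 libraries of the series. The 6 were taken by their labels alone, as all LTHSC and all MkP libraries whose genotype is given as Vav1-Cre. VF mice express Cre from the Vav1 promoter, which is active across blood cells, and their label names a Jak2 change from valine to phenylalanine. The mice were C57BL/6N, received tamoxifen on 5 days and were sampled 12 weeks later. The populations were sorted from bone marrow by flow cytometry, RNA was extracted with PicoPure, and libraries were made by Smart-seq2, which amplifies full-length cDNA without molecular identifiers. Both populations carry the VF genotype and both had tamoxifen, so the comparison describes 2 populations within 1 line and holds no measure of the mutation itself. The labels do not say whether the Vav1-Cre used is one that needs tamoxifen, which surface gates defined the populations, or whether replicates came from separate animals. The p-values therefore measure the spread between these samples, which may be technical. For tests of a difference between lines, the LTHSC and MkP libraries of the other lines were used, 3 per group. Both of those lines carry Scl-Cre. KI holds a knock-in of mouse Jak2, and the label of E12 names Jak2 exon 12. In those tests the Cre driver changed together with the genotype, so the contributions of driver and Jak2 allele cannot be told apart.

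LTHSC divide rarely and keep up all blood lineages for life. MkP are committed to the megakaryocyte, a giant cell that copies its DNA without dividing, fills with granules and sheds platelets. Cytokine receptors of both populations signal through the Jak2 kinase and the STAT5 factors and are restrained by inhibitors that the same signal induces. Part of the mouse stem cell pool transcribes platelet genes before any commitment can be seen. The comparison asks which genes separate the start and the megakaryocyte end of this path in the VF line.

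Library totals lay between 20354022 and 23023520 counts. Genes detected numbered 16006, 15979 and 15981 in LTHSC and 14939, 14997 and 14608 in MkP. The part of this difference in the counts of large losses was not tested. Pearson's r of log2 levels across genes was 0.959 to 0.982 within a population and 0.874 to 0.906 between them. Levels are CPM, with library sizes scaled by TMM (edgeR's trimmed mean method), and sets of 3 values stand in the order of replicates 1, 2 and 3. A fold change is given as log2 of MkP over LTHSC with an approximate standard error (SE). The SE was calculated back from the test, as the absolute log2 fold change divided by the square root of its F value. A gene passed where edgeR's quasi-likelihood test gave a Benjamini-Hochberg adjusted p under 0.05 over all 13677 tested genes. Malat1, a nuclear non-coding RNA, was at 1466, 1995 and 2185 CPM in LTHSC and 1139, 1246 and 1549 in MkP. Its part in the results was not tested. Rn45s, the ribosomal RNA precursor, was at 19750, 17910 and 12230 CPM in LTHSC and at 35970, 27000 and 52170 CPM in MkP, with MkP 3 highest. When Rn45s was left out, 5532 genes passed, against 5538 with it.

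Between LTHSC and MkP, 2636 genes (19.3% of those tested) were higher in MkP and 2902 (21.2%) were lower, 5538 in all, with 6638 at an unadjusted p under 0.05. Large changes were mostly losses: 627 of the higher genes but 1768 of the lower genes differed by at least 2-fold, and 141 and 526 by at least 8-fold. Libraries of both populations did not overlap for 7449 of the tested genes (54.5%), among them 5460 of the 5538 that passed. The median of all tested genes was log2 -0.03. With scaling to the library total alone this median was -0.17, and the share of higher genes among the passing genes fell from 47.6% to 33.0%. In a fit that took a shared spread from all 24 libraries of the series, 817 genes passed, 239 higher and 578 lower, and 813 of them were among the 5538. Its counts stand beside most gene groups below.

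**Figure D1:**
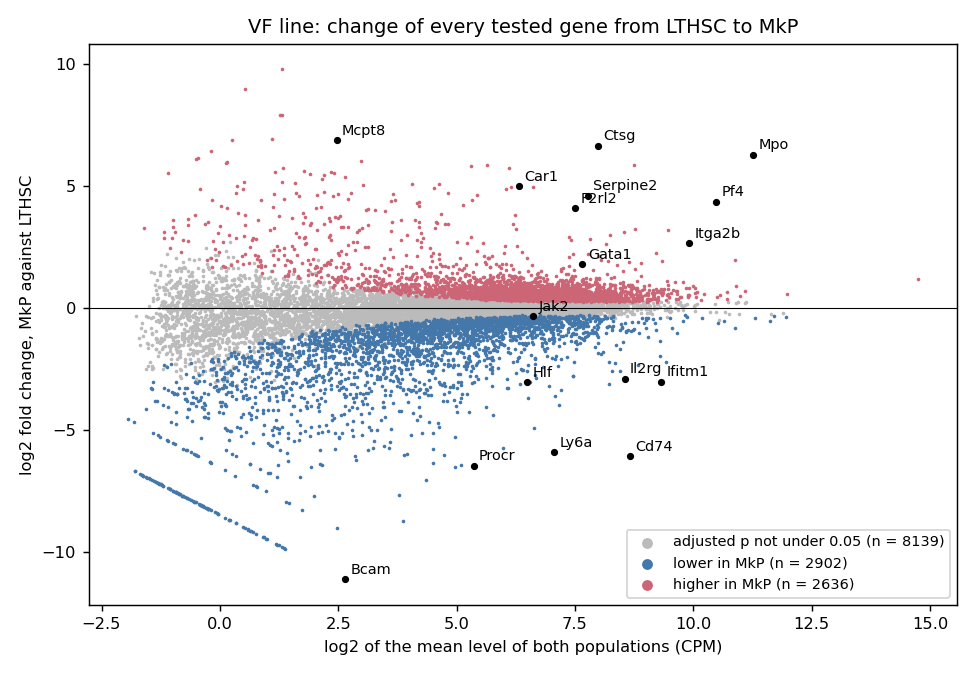
Each point is 1 of the 13677 tested genes, with log2 of the mean CPM of both populations on the x axis and the log2 fold change of MkP against LTHSC on the y axis; colours mark the 2636 higher, the 2902 lower and the 8139 other genes. Losses reach further than gains, and the straight lower left edge holds genes with 0 counts in all MkP libraries, whose fitted fold depends on the prior count.

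Jak2 (Entrez 16452, chromosome 19, 29251803 to 29313095 in GRCm38), the gene that the line was built on, was at 120.3, 99.6 and 107 CPM in LTHSC and at 99.1, 82.6 and 78.8 CPM in MkP (log2 -0.33, SE 0.13, adjusted p = 0.0598). The MkP values lay below the LTHSC values in all 3 libraries without overlap, a separation found for 54.5% of all tested genes. The difference did not pass, and the exact 2-sided permutation test gave p = 0.1, the smallest that 3 against 3 libraries allow. It passed with scaling to the library total alone (log2 -0.47, adjusted p = 0.0156) and without MkP 1 (log2 -0.43, adjusted p = 0.0281). With the replicate number as a block it passed too. Counts per gene do not tell the mutant from the normal allele, so they do not check the label.

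Most genes of platelet surface receptors were higher in MkP. Of 28 tested members 16 (57.1%) were higher and 3 lower, against 19.3% and 21.2% of all tested genes, with a median of log2 1.19. The lower members were 5 with scaling to the library total or DESeq2 and 6 with limma voom. Itga2b, which codes for CD41, the alpha chain of the platelet fibrinogen receptor (Entrez 16399, chromosome 11, 102453297 to 102469883), was at 336, 259 and 189.7 CPM in LTHSC and at 1815, 1556 and 1634 CPM in MkP (log2 2.67, SE 0.18, adjusted p = 4.25e-06). CD41 is a usual sorting marker of MkP, and where the gate used it this difference is part of the definition. Its partner Itgb3 rose from 119 ± 15.9 to 353 ± 47.4 CPM (SD, n = 3 each; log2 1.57).

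The von Willebrand factor receptor has 4 chains, and all 4 genes were higher. Gp5 was at 60.9, 57.2 and 47.5 CPM in LTHSC and at 393, 352 and 443 CPM in MkP (log2 2.84, SE 0.13, adjusted p = 5.66e-07). Gp1bb was at 51.0, 34.8 and 29.7 CPM in LTHSC and at 373, 222 and 279 CPM in MkP (log2 2.92, SE 0.23, adjusted p = 1.11e-05). Every MkP library lay above every LTHSC library for both, and MkP 1 was highest for Gp1bb. Gp1ba (log2 1.598) and Gp9 (log2 1.28) were also higher, from 36.6 to 111 CPM and from 47.0 to 114 CPM. F2rl2, the thrombin receptor PAR3, was at 20.6, 18.01 and 21.5 CPM in LTHSC and at 349.7, 332 and 342 CPM in MkP (log2 4.09, SE 0.12, adjusted p = 4.23e-08). The 3 MkP libraries were nearly equal and the groups lay far apart. Treml1, an alpha-granule membrane receptor, rose from 12.2 ± 0.51 to 135 ± 26.4 CPM (SD, n = 3 each; log2 3.46). Clec1b, the podoplanin receptor CLEC-2, was low in both, at 1.72, 1.30 and 1.44 and 18.5, 13.5 and 16.0 CPM (log2 3.42). The ADP receptor P2ry1 (log2 2.31) and the tetraspanin Cd9 (log2 1.62) rose, while P2ry12, the other platelet ADP receptor, was at 0.49 and 0.92 CPM.

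Not every platelet receptor gene separated the populations. Selp, which codes for the P-selectin of granule membranes, averaged 166 CPM in LTHSC and 174 in MkP and did not pass. Jam3 (log2 -1.92), Esam (log2 -0.77) and Cd63 (log2 -0.59) were lower in MkP. Jam3 and Esam code for cell adhesion molecules and Cd63 for a granule tetraspanin. Gp6, the collagen receptor, and Adra2a were not tested, with Gp6 listed at 0 in all LTHSC libraries and at 0.16 CPM in MkP. With all 24 libraries in the fit, 8 receptor genes were higher and 0 lower.

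The alpha granule is the platelet's store of secreted proteins. Of 22 tested cargo genes 12 (54.5%) were higher in MkP and 4 (18.2%) lower (median log2 1.12). Over all tested genes these shares were 19.3% and 21.2%, so the lower share of the list was near that of all genes. Pf4, the chemokine platelet factor 4 (Entrez 56744, chromosome 5, 90772435 to 90773383), was at 174, 121 and 104 CPM in LTHSC and at 3448, 2041 and 2750 CPM in MkP (log2 4.37, SE 0.24, adjusted p = 1.24e-06). All 3 MkP libraries were far above LTHSC, with MkP 1 highest. Per gene length, as TPM, Pf4 rose from 512 ± 137 to 8990 ± 2336 TPM (SD, n = 3 each) and held rank 2 among all genes in MkP. Serpine2, an inhibitor of thrombin and plasminogen activators, was at 21.8, 14.2 and 15.5 CPM in LTHSC and at 463, 354 and 441 CPM in MkP (log2 4.61, SE 0.19, adjusted p = 2.75e-07). F13a1, the A chain of the clot-linking factor XIII, was at 1.94, 2.61 and 1.57 CPM in LTHSC and at 36.7, 58.6 and 67.5 CPM in MkP (log2 4.73, SE 0.29, adjusted p = 2.07e-06). Both were separated without overlap.

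Vwf, the platelet adhesion protein, was already abundant in LTHSC, at 295, 188 and 202 CPM, and stood at 650.1, 399 and 368 CPM in MkP (log2 1.05, SE 0.23, adjusted p = 0.00431). The lowest MkP library still lay above the highest LTHSC library, and MkP 1 was highest. The adhesive glycoprotein gene Thbs1 (log2 2.81) and the chemokine gene Ppbp (log2 2.51) also rose. So did Nrgn (log2 2.22) and the small GTPase gene Rap1b (log2 1.94). Nrgn and Rap1b code for proteins inside the cell, so the cargo list is wider than secreted proteins. Apoe, Mmrn1, Srgn and Clu were at 728, 290.4, 844 and 139 CPM in LTHSC and did not pass. Angpt1, which codes for angiopoietin 1, was lower in MkP (log2 -0.38, adjusted p = 0.0115; 0.0676 without LTHSC 2), as were Lgals3bp (log2 -0.81) and Ecm1 (log2 -1.41). With all 24 libraries in the fit, 5 cargo genes were higher and 1 lower. In sorted bulk cells, fewer cells of a type and less RNA per cell cannot be told apart.

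GATA1 is known to drive platelet genes through the letters AGATAA and TGATAA near their starts, so the promoter windows of receptor and cargo genes were read from RefSeq (GRCm38.p6; 250 bases before to 50 after the start, on the gene's strand). Of 25 windows of 23 higher genes 6 (24%) held such a motif on either strand, against 6115 of all 32851 windows (18.6%), 9 of 48 windows of all members (18.8%) and 2 of 15 of the members that did not pass (13.3%). The 4 below are shown because their genes were among the largest rises with a match. Pf4 lies at chr5:90772185-90772484 on the plus strand, F2rl2 at chr13:95696670-95696969 plus, Clec1b at chr6:129397047-129397346 plus and Gp5 at chr16:30310732-30311031 minus; capitals mark the motif, read TTATCT where it stands on the opposite strand.
Pf4: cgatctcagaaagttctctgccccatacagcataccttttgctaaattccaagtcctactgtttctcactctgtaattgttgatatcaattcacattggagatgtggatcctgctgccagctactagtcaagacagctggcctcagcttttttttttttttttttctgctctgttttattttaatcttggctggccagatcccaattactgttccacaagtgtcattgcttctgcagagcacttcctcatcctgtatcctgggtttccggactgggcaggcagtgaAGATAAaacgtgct
F2rl2: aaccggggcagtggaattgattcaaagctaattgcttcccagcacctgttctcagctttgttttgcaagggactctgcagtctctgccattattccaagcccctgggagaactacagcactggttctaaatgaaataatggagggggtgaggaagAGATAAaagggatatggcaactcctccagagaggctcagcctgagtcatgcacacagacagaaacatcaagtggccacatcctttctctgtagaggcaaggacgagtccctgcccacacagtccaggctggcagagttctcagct
Clec1b: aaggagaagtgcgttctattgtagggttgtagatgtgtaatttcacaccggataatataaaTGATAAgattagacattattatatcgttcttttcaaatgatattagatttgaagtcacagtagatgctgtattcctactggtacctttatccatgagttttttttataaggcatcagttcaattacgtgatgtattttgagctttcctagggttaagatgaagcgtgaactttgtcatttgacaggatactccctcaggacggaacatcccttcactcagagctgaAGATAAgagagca
Gp5: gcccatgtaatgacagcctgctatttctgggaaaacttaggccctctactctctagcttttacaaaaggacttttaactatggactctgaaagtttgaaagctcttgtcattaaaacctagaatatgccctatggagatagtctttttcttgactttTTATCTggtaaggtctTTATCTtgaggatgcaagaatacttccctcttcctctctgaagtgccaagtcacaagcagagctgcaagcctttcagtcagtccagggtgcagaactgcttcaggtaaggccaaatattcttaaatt
Clec1b and Gp5 each held 2 matches and Pf4 and F2rl2 1 each. The ETS letters AGGAAG or CGGAAG, the core that factors such as Fli1 bind, stood in 17 of the same 25 windows (68%), in 62.5% of the windows of all members, in 9 of 15 of those that did not pass (60%) and in 46.5% of all windows. A match is a description of the letters in this window and says nothing about binding.

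Genes for building granules as organelles passed at about the share of all tested genes (42.3% against 40.5%). Of 26 tested 6 were higher (23.1%) and 5 lower (19.2%; median log2 -0.12), shares near the 19.3% and 21.2% of all genes. The median was -0.01 without LTHSC 1 and -0.27 with scaling to the library total, and with scaling to the library total 3 were higher and 8 lower. Rab27b, a small GTPase of dense granule release, rose from 62.1 ± 4.64 to 269 ± 17.3 CPM (SD, n = 3 each; log2 2.11), and Stx11, the fusion syntaxin of platelet secretion, from 10.01 ± 2.42 to 64.5 ± 8.37 CPM (SD, n = 3 each; log2 2.69). Slc35d3, needed for platelet dense granules and outside the list, was among the largest rises: it was at 2.58, 2.92 and 2.09 CPM in LTHSC and at 140.2, 105 and 159 CPM in MkP (log2 5.73, SE 0.21, adjusted p = 2.23e-07). No LTHSC library came near an MkP library. Nbeal2, the gene of grey platelet syndrome, fell from 92.0 ± 6.25 to 57.1 ± 6.64 CPM (SD, n = 3 each), Slc18a2, the dense granule monoamine transporter, fell from 363 ± 15.7 to 213 ± 19.4 CPM (SD, n = 3 each), and Snap23 fell by 0.67 on the log2 scale. The fit over all 24 libraries left 2 higher and 0 lower.

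Cytoskeletal and platelet signalling genes were mostly higher in MkP. Of 34 cytoskeleton genes 19 (55.9%) were higher and 4 (11.8%) lower, against 19.3% and 21.2% of all tested genes (median log2 0.53). Tuba8, an alpha-tubulin, was at 87.4, 75.6 and 38.2 CPM in LTHSC and at 615, 531 and 482 CPM in MkP (log2 3.02, SE 0.26, adjusted p = 1.69e-05). The actin-binding genes Tmsb4x (log2 1.98), Pfn1 (log2 0.93) and Vcl (log2 1.54) and Lims1 (log2 1.84), an adaptor of integrin adhesions, rose with it, with no overlap of the groups for any of them and MkP 3 highest for Tmsb4x and Pfn1. Tubb1, the beta-tubulin of the platelet marginal band, and Myl9, a myosin light chain of mature megakaryocytes, were low at 6.88 and 0.96 CPM in MkP and did not pass. Of 28 signalling genes 15 (53.6%) were higher and 3 (10.7%) lower (median log2 0.46). Mrvi1, a target of cGMP kinase that dampens calcium release, was at 0.60, 1.35 and 0.87 CPM in LTHSC and at 37.3, 28.8 and 31.7 CPM in MkP (log2 5.11, SE 0.30, adjusted p = 1.55e-06). Rgs10, a brake on G protein signals, was at 3.27, 3.22 and 3.44 CPM in LTHSC and at 75.0, 66.4 and 108 CPM in MkP (log2 4.65, SE 0.22, adjusted p = 5.66e-07). Both were under 4 CPM in every LTHSC library. The phospholipase gene Plcb2 (log2 -1.42) and the calcium channel gene Orai1 (log2 -1.17) were lower in all MkP libraries. With all 24 libraries in the fit, 4 cytoskeleton genes were higher and 2 lower, and 5 signalling genes were higher and 1 lower.

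**Figure D2:**
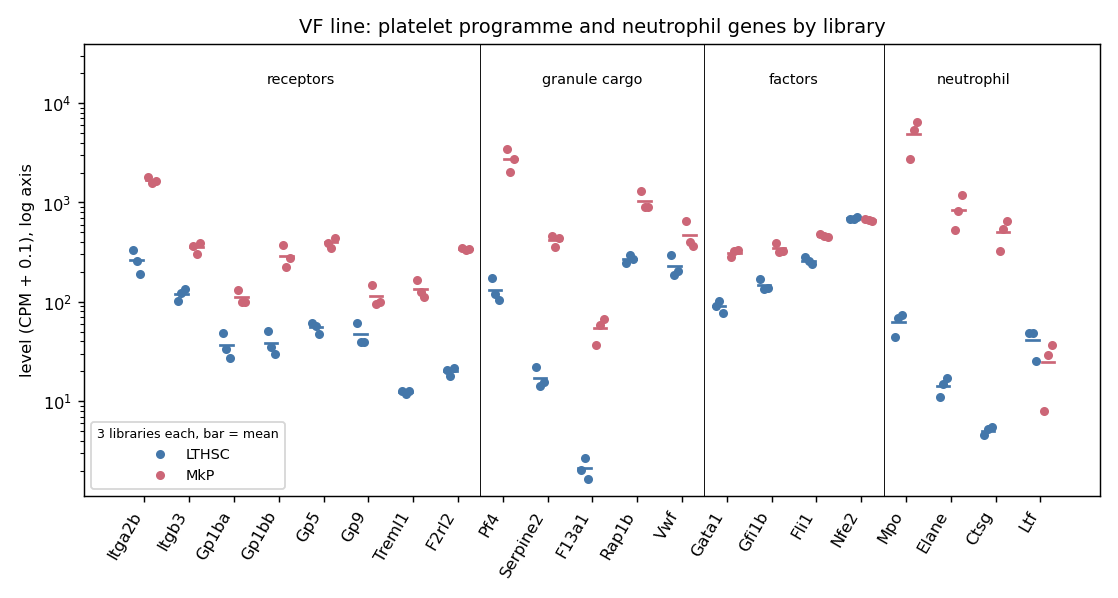
Levels in CPM (plus 0.1, log axis) of receptor, granule cargo, transcription factor and neutrophil genes, with 1 point per library and a bar at the mean of 3, LTHSC in blue and MkP in red. Pf4, Serpine2 and F2rl2 lie far apart between the populations, as do the neutrophil genes Mpo, Elane and Ctsg, while Nfe2 overlaps. Rap1b, drawn with the granule cargo, codes for a small GTPase that is not secreted.

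Transcription factors of the megakaryocyte lineage were higher in part. Of 24 tested 10 (41.7%) were higher and 3 (12.5%) lower, against 19.3% and 21.2% of all tested genes. The median was log2 0.42, with 0.27 under scaling to the library total and 0.28 without MkP 3. Gata1, the master factor of megakaryocytes and red cells (Entrez 14460, chromosome X, 7959260 to 7976663), was at 90.9, 102 and 77.7 CPM in LTHSC and at 284, 328 and 329.5 CPM in MkP (log2 1.80, SE 0.13, adjusted p = 4.54e-06). Its cofactor Zfpm1 (FOG1) rose from 38.5 ± 8.86 to 98.8 ± 23.5 CPM (SD, n = 3 each; log2 1.36), and Gfi1b, a repressor needed by both lineages, from 147 ± 18.4 to 345 ± 38.7 CPM (SD, n = 3 each; log2 1.23). The groups did not overlap for any of these 3. Mef2c (log2 1.13) and the ETS factor Fli1 (log2 0.84) were also higher. Nfe2, the late megakaryocyte factor, averaged 694 CPM in LTHSC and 668 in MkP (log2 -0.05) and did not pass. Ikzf2 (Helios), a zinc finger factor, was lower in MkP (log2 -1.83), as were Hhex and Lyl1 (log2 -0.62 and -0.58). The fit over all 24 libraries left 3 higher and 1 lower.

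Many neutrophil, monocyte, mast cell and basophil genes were also higher in MkP. In the neutrophil and monocyte list 52.2% were higher and 8.70% lower, against 19.3% and 21.2% of all tested genes. Of 23 tested neutrophil and monocyte genes 12 were higher in MkP and 2 lower (median log2 1.25; 0.67 without a filter on low counts, 0.66 with a minimum of 1 CPM and 0.73 in the fit over all 24 libraries), and the summed level of the list was 965 to 1197 CPM in LTHSC and 4480.3 to 10056.5 CPM in MkP. Mpo, the myeloperoxidase of primary granules, was at 44.3, 68.1 and 73.5 CPM in LTHSC and at 2722, 5318 and 6502 CPM in MkP (log2 6.29, SE 0.35, adjusted p = 1.24e-06). Per gene length, as TPM, Mpo held rank 8 among all genes in MkP. The serine protease genes Elane and Ctsg rose as well. Elane was at 10.9, 14.9 and 17.01 CPM in LTHSC and at 533, 818 and 1177 CPM in MkP (log2 5.89, SE 0.31, adjusted p = 9.89e-07). Ctsg was at 4.44, 5.13 and 5.35 CPM in LTHSC and at 322, 535 and 658 CPM in MkP (log2 6.67, SE 0.28, adjusted p = 2.75e-07). In all 3 genes MkP 1 was lowest and MkP 3 highest among MkP. The lower members were Gfi1, a repressor that stem cells also use, and Lyz2, a lysozyme of monocytes and granulocytes (log2 -1.599 and -0.54). The genes of later neutrophils did not pass: S100a8 averaged 100.1 and 87.0 CPM, Ltf 40.9 and 24.5, and Camp 34.5 and 33.1. Fcgr3 (CD16), a myeloid receptor, and Cd48 rose from 1.47 to 44.4 CPM and from 3.53 to 76.5 CPM. Both are usual sorting markers, so where the gates used them the difference is part of the definition.

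Of 10 tested mast cell, basophil and eosinophil genes 7 (70%) were higher and 0 lower. The summed level of the list was 10.04 to 16.6 CPM in LTHSC and 92.6 to 185 CPM in MkP. Mcpt8, a basophil protease, was at 0, 0.087 and 0.17 CPM in LTHSC and at 4.07, 13.7 and 15.2 CPM in MkP (log2 6.89, SE 0.77, adjusted p = 8.29e-05), and the mast cell carboxypeptidase gene Cpa3 was at 2.63, 6.92 and 4.09 CPM in LTHSC and at 15.3, 56.0 and 76.8 CPM in MkP (log2 3.44, SE 0.54, adjusted p = 7.29e-04). MkP 1 was again the lowest MkP library. Prss34, a basophil protease, was at 0 in all LTHSC libraries and averaged 4.99 CPM in MkP, at least 38.3-fold above a floor of 3 counts per library. Tpsab1, Tpsb2 and Mcpt4, proteases of mature mast cells, were at 0 in all 6 libraries. Among 7 tested lymphoid genes 1 was higher (2 without LTHSC 2, MkP 2 or MkP 3 and 3 without MkP 1): Nkg7, a granule gene of cytotoxic and myeloid cells, rose from 79.9 ± 12.3 to 492 ± 96.8 CPM (SD, n = 3 each). The defining T cell genes Cd3e and Cd3g and the B cell gene Ms4a1 had 0 counts in all 6 libraries. Of 11 stroma, endothelium and macrophage genes 2 were higher (1 without LTHSC 1) and 1 lower (2 without MkP 3), and Cdh5 and Col3a1 were at 0 in all MkP libraries. The higher shares of the lymphoid (14.3%) and stroma, endothelium and macrophage (18.2%) lists did not exceed the 19.3% of all tested genes. Over all 24 libraries 9 neutrophil and monocyte and 4 mast cell, basophil and eosinophil genes were higher and 0 lower, 0 lymphoid genes passed and 1 stroma, endothelium or macrophage gene was lower. The part of these cell types in the platelet, erythroid and cell cycle results was not tested. Without MkP 3, the library with the most Mpo, 2520 genes were higher and 2922 lower.

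Red cell genes were partly higher in MkP. Of 28 tested erythroid genes 16 (57.1%) were higher and 3 (10.7%) lower, against 19.3% and 21.2% of all tested genes (median log2 0.99). Without MkP 3, 6 were lower. Car1, carbonic anhydrase 1, was at 3.27, 8.48 and 2.87 CPM in LTHSC and at 49.2, 239 and 177 CPM in MkP (log2 4.99, SE 0.73, adjusted p = 0.00192). MkP 2 was highest and MkP 1 lowest, with a wide spread within the population. Klf1, the erythroid transcription factor, rose from 19.7 ± 2.50 to 87.2 ± 32.5 CPM (SD, n = 3 each; log2 2.14), and Mfsd2b, which moves sphingosine phosphate out of red cells, from 77.4 ± 20.5 to 667 ± 106 CPM (SD, n = 3 each; log2 3.11). Epor, the erythropoietin receptor, was at 34.0, 25.5 and 23.4 CPM in LTHSC and at 48.1, 57.5 and 52.2 CPM in MkP (log2 0.93, SE 0.17, adjusted p = 0.00177). All MkP libraries lay above LTHSC. The beta-globin genes were low and lower still in MkP: Hbb-bs fell from 31.6 ± 8.09 to 8.15 ± 4.40 CPM and Hbb-bt from 38.1 ± 6.12 to 6.27 ± 3.38 CPM (SD, n = 3 each), and near copies among globins can share reads. Hba-a1 averaged 32.7 and 26.9 CPM and did not pass. The fit over all 24 libraries left 8 higher and 1 lower.

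The title of the series names iron. Of 26 tested genes of iron uptake, storage and export 4 were higher and 5 lower (median log2 -0.09; -0.24 with scaling to the library total and -0.02 without LTHSC 2), shares of 15.4% and 19.2% that lie near those of all genes. Tfrc, the transferrin receptor that takes up iron, was at 36.1, 29.0 and 19.1 CPM in LTHSC and at 64.3, 79.4 and 60.7 CPM in MkP (log2 1.28, SE 0.22, adjusted p = 0.00109). Steap3, the reductase that frees that iron in the endosome, rose from 16.5 ± 2.65 to 49.8 ± 9.49 CPM (SD, n = 3 each; log2 1.59). Tfr2, the iron-sensing receptor of the erythropoietin receptor complex, fell from 285 ± 34.7 to 209.5 ± 12.5 CPM (SD, n = 3 each; log2 -0.45). Hfe, a regulator of transferrin receptor binding, fell by 1.83 on the log2 scale. The ferritin genes Fth1 and Ftl1 averaged 1086 and 742 CPM in LTHSC and 1011 and 693 in MkP and did not pass. Leaving out LTHSC 1, 2 or 3 left 3, 3 and 2 lower members.

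Heme synthesis genes were higher in 8 of 14 (57.1%) and lower in 0, against 19.3% and 21.2% of all tested genes (median log2 0.47). Without LTHSC 2 there were 5 higher, and with scaling to the library total 1 was lower. Alas1, the general first enzyme of the pathway, was at 44.3, 43.3 and 54.3 CPM in LTHSC and at 92.9, 129 and 182 CPM in MkP (log2 1.51, SE 0.21, adjusted p = 3.88e-04), with all MkP libraries above LTHSC. Alas2, its erythroid form, was at 3.41 and 1.89 CPM and did not pass. Cpox, a later enzyme of the pathway, rose by log2 1.22, and Fech, the last, averaged 114 and 113 CPM. Of 25 iron-sulfur cluster genes 10 were higher (40%) and 0 lower (median log2 0.20), against 19.3% and 21.2% of all tested genes. The share that passed either way, 40%, was that of all tested genes (40.5%). Glrx5, which hands clusters on, rose most (log2 0.99). With scaling to the library total the median was 0.05. That count was 4 without LTHSC 3, 6 without MkP 1 and 4 with scaling to the library total. With all 24 libraries in the fit, no iron, heme or iron-sulfur gene passed.

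Most stem cell factors were lower in MkP. Of 24 stem cell transcription factors 15 (62.5%) were lower and 2 (8.33%) higher, against 21.2% and 19.3% of all tested genes (median log2 -1.10). Hlf, a factor that marks LTHSC (Entrez 217082, chromosome 11, 90336535 to 90390917), was at 146, 142 and 192 CPM in LTHSC and at 23.1, 21.8 and 14.1 CPM in MkP (log2 -3.02, SE 0.20, adjusted p = 3.35e-06). Mecom, the Evi1 locus needed for stem cell renewal, was at 134, 113 and 145 CPM in LTHSC and at 23.1, 17.04 and 22.7 CPM in MkP (log2 -2.64, SE 0.16, adjusted p = 1.70e-06). Nkx2-3, a homeobox factor, fell from 57.6 ± 7.29 to 4.30 ± 0.96 CPM (SD, n = 3 each; log2 -3.74). All 3 were expressed in every MkP library, at levels 6.24 to 13.3 times lower than in LTHSC. Gata3 (log2 -2.34), Prdm16 (log2 -2.32), Erg (log2 -1.48) and Hoxa9 (log2 -1.44) also fell. Meis1 and Gata2 averaged 466 and 374 CPM in LTHSC and 393 and 479 in MkP and did not pass. Runx1, which megakaryocytes also use, was 1 of the 2 higher members. The fit over all 24 libraries left 8 lower and 1 higher.

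Of 21 tested stem cell surface and niche genes 13 (61.9%) were lower and 2 (9.52%) higher, against 21.2% and 19.3% of all tested genes. The median was log2 -0.42, and 1 was higher without LTHSC 2 or 3 or MkP 1 or 2. Procr, the endothelial protein C receptor (EPCR), was at 82.5, 73.3 and 88.1 CPM in LTHSC and at 0.27, 1.98 and 0.58 CPM in MkP (log2 -6.46, SE 0.44, adjusted p = 4.38e-06). Fgd5, a guanine exchange factor used to mark LTHSC, was at 37.7, 41.9 and 53.6 CPM in LTHSC and at 1.58, 0.71 and 0.14 CPM in MkP (log2 -5.74, SE 0.49, adjusted p = 1.60e-05). Both were close to 0 in MkP. Ly6a, which codes for the sorting antigen Sca-1, was at 242, 279 and 269.9 CPM in LTHSC and at 3.93, 3.46 and 5.90 CPM in MkP (log2 -5.89, SE 0.20, adjusted p = 1.07e-07), and Slamf1 (CD150) fell from 131 ± 30.8 to 65.7 ± 17.4 CPM (SD, n = 3 each). Sca-1 and CD150 are common sorting markers, so where the gates used them the difference is part of the definition. Kit, the stem cell factor receptor, averaged 948 CPM in LTHSC and 548 in MkP (log2 -0.79). Of 17 quiescence and imprinted genes 9 (52.9%) were lower and 2 (11.8%) higher. Their median was log2 -0.58, and 1 was higher without LTHSC 3 or MkP 1. Cdkn1c, the cell cycle inhibitor p57, fell from 37.4 ± 10.5 to 3.72 ± 0.50 CPM (SD, n = 3 each; log2 -3.33), and Ndn, an imprinted growth suppressor, from 24.1 ± 7.02 to 3.01 ± 0.74 CPM (SD, n = 3 each; log2 -2.998). With all 24 libraries in the fit, 6 surface genes and 3 quiescence genes were lower and 0 higher.

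Most cytokine receptor genes and their signal carriers were lower in MkP. Of 24 tested receptor genes 14 (58.3%) were lower and 4 (16.7%) higher (median log2 -0.63). Over all tested genes these shares were 21.2% and 19.3%, so the higher share of the list was near that of all genes. Il2rg, the common gamma chain of interleukin receptors, was at 568, 654 and 761 CPM in LTHSC and at 73.8, 108 and 86.6 CPM in MkP (log2 -2.89, SE 0.16, adjusted p = 1.24e-06). Csf3r, the receptor of granulocyte colony-stimulating factor, was at 69.0, 83.7 and 57.5 CPM in LTHSC and at 7.998, 25.5 and 20.5 CPM in MkP (log2 -1.96, SE 0.34, adjusted p = 0.00127). Il6st (gp130), shared by the interleukin 6 family, fell from 47.9 ± 3.27 to 15.7 ± 3.86 CPM (SD, n = 3 each; log2 -1.61). LTHSC and MkP did not overlap for these 3. Il6ra (log2 1.45) and Csf1r (log2 3.22), which bind interleukin 6 and macrophage colony-stimulating factor, were higher, the latter at 7.68, 15.2 and 18.6 CPM in MkP with MkP 1 lowest. Of 11 JAK kinases and STAT factors 7 (63.6%) were lower and 0 higher (median log2 -0.61). Without MkP 3, 1 was higher. Jak1 (log2 -0.72), Jak3 (log2 -0.71) and Stat3 (log2 -0.61) were lower. Stat5a and Stat5b, the factors that Jak2 activates, averaged 139.7 and 116 CPM in LTHSC and 162 and 124 in MkP and did not pass.

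Cish and Socs2, inhibitors that STAT5 induces, were lower in MkP. Of 20 JAK-STAT inhibitors 9 (45%) were lower and 2 (10%) higher, against 21.2% and 19.3% of all tested genes. The median was log2 -0.31, and 1 was higher without LTHSC 2 or 3 or MkP 1 or 2. Cish was at 164, 168 and 209.7 CPM in LTHSC and at 29.6, 26.4 and 17.98 CPM in MkP (log2 -2.87, SE 0.19, adjusted p = 2.99e-06). Socs2 was at 264, 222 and 234 CPM in LTHSC and at 71.1, 45.8 and 52.7 CPM in MkP (log2 -2.09, SE 0.16, adjusted p = 8.73e-06). Both code for SOCS-box proteins that damp cytokine receptors, and their groups lay well apart. Sh2b3 (LNK), an adaptor that restrains cytokine signals, fell from 72.4 ± 5.75 to 22.2 ± 5.65 CPM (SD, n = 3 each; log2 -1.71), and Socs3 by 2.20 on the log2 scale. Ptpn11 (SHP2), a phosphatase that promotes rather than stops growth signals, rose from 108 ± 6.30 to 232 ± 6.55 CPM (SD, n = 3 each; log2 1.10). Among 18 STAT5 and cytokine targets 8 (44.4%) were lower and 3 (16.7%) higher, the latter near the 19.3% of all tested genes. Their median was log2 -0.31, with -0.19 without LTHSC 2 and -0.49 without MkP 3. The kinase gene Pim2 fell from 190 ± 39.3 to 35.5 ± 14.6 CPM (SD, n = 3 each; log2 -2.42), whereas Myc was at 214, 325 and 292 CPM in LTHSC and at 335, 539 and 725 CPM in MkP (log2 0.94, SE 0.24, adjusted p = 0.0109). MkP 3 was highest and MkP 1 lowest for Myc, which did not pass without a filter on low counts (adjusted p = 0.0508). Bcl2l1, which codes for the survival protein Bcl-xL, and the cyclin gene Ccnd3 also rose (log2 0.79 and 0.66). The fit over all 24 libraries left 3 receptors, 1 inhibitor and 0 targets higher and 4 receptors, 0 JAK and STAT genes, 4 inhibitors and 3 targets lower.

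Interferon response genes had the largest share of lower members of the lists used. Of 46 tested members 38 (82.6%) were lower in MkP and 1 higher, against 21.2% and 19.3% of all tested genes, with a median of log2 -1.19 and a summed level of 20557 to 21058 CPM in LTHSC and 13056 to 14626 CPM in MkP. Ifitm1, an antiviral membrane protein, was at 1119, 1028 and 1283 CPM in LTHSC and at 119.6, 177 and 132 CPM in MkP (log2 -3.001, SE 0.16, adjusted p = 9.89e-07). Ifi44 was at 95.7, 149.5 and 126 CPM in LTHSC and at 9.85, 22.2 and 7.09 CPM in MkP (log2 -3.25, SE 0.36, adjusted p = 9.03e-05). Ifit3, which binds the signalling complex of viral RNA sensing, was at 10.4, 24.01 and 30.3 CPM in LTHSC and at 1.40, 0.71 and 0.81 CPM in MkP (log2 -4.45, SE 0.45, adjusted p = 4.72e-05). For each of them all MkP libraries lay below all LTHSC libraries, and LTHSC 1 was the lowest LTHSC library for Ifit3 and Ifi44. The transcription factor genes Irf7 (log2 -2.11), Irf1 (log2 -2.02) and Irf9 (log2 -1.12) fell, as did the guanylate-binding protein gene Gbp2 (log2 -2.06).

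MHC class I genes, which present peptides on nearly all cells, had smaller differences. B2m, the class I light chain, was at 4428, 4631 and 4234 CPM in LTHSC and at 3468, 3489 and 3521 CPM in MkP (log2 -0.34, SE 0.09, adjusted p = 0.00956); it did not pass without LTHSC 2 (adjusted p = 0.0745) or MkP 2 (adjusted p = 0.0529). H2-K1 (log2 -0.54) was lower too, while H2-D1 (log2 -0.33, adjusted p = 0.0397) no longer passed when LTHSC 1, 2 or 3, MkP 2 or MkP 3 was left out (adjusted p 0.0534 to 0.122), and these near copies can share reads. The peptide transporter and immunoproteasome genes Tap1, Tap2, Psmb8 and Psmb9 did not pass, with log2 values of 0.08, -0.02, -0.06 and 0.00. Ifitm2 was the higher member (log2 0.33), a call that was lost with scaling to the library total and without LTHSC 1 or 3 or MkP 1 or 3 (adjusted p 0.0528 to 0.183). With all 24 libraries in the fit, 12 interferon genes were lower and 0 higher. Cd74, the invariant chain of MHC class II, was among the largest losses: it was at 739, 561 and 1092 CPM in LTHSC and at 12.8, 11.8 and 11.3 CPM in MkP (log2 -6.06, SE 0.25, adjusted p = 2.75e-07).

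Interferon-stimulated factors bind letters of the form GAAANNGAAA, and these were searched on both strands of the promoter windows. Windows were found for 28 of the 38 lower members. Of their 36 windows 17 (47.2%) held a match, against 3.44% of all 32851 windows. So did 20 of 42 windows of all members (47.6%), the 1 window of the higher member and 2 of 5 of members that did not pass (40%). Members were listed for their interferon response, so this share does not bear on the lower level in MkP. The 4 windows below belong to genes with a match and large losses, with the match in capitals, read as its reverse complement where it stands on the opposite strand. They are Ifit3 at chr19:34583279-34583578 plus, Ifit1 at chr19:34640639-34640938 plus, Oas3 at chr5:120777610-120777909 minus and Gbp2 at chr3:142620413-142620712 plus.
Ifit3: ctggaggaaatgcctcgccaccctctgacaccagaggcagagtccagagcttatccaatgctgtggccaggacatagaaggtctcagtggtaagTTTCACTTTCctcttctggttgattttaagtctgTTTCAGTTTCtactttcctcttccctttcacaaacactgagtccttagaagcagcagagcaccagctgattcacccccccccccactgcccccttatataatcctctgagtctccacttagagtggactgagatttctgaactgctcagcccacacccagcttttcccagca
Ifit1: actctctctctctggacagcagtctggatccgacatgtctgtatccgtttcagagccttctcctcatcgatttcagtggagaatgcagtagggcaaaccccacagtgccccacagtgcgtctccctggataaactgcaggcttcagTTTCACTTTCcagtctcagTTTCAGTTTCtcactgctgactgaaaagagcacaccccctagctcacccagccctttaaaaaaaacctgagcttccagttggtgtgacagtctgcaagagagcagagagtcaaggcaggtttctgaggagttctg
Oas3: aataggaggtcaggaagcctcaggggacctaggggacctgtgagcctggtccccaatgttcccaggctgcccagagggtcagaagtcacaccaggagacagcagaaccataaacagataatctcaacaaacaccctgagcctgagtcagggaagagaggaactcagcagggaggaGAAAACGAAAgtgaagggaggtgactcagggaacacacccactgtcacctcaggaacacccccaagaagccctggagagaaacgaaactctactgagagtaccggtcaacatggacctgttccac
Gbp2: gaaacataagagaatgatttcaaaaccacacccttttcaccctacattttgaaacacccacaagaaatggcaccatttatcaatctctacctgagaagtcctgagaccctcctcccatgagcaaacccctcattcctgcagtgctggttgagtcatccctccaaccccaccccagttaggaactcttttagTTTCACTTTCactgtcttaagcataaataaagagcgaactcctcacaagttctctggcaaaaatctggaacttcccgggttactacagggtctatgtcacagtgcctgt
Ifit3 and Ifit1, neighbours on chromosome 19, each held 2 matches. Ifit1 fell from 70.9 ± 25.1 to 14.9 ± 3.79 CPM, Oas3 from 88.2 ± 24.2 to 20.4 ± 3.77 CPM and Gbp2 from 218 ± 37.7 to 52.3 ± 12.1 CPM (SD, n = 3 each). The letters describe the window only.

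**Figure D3:**
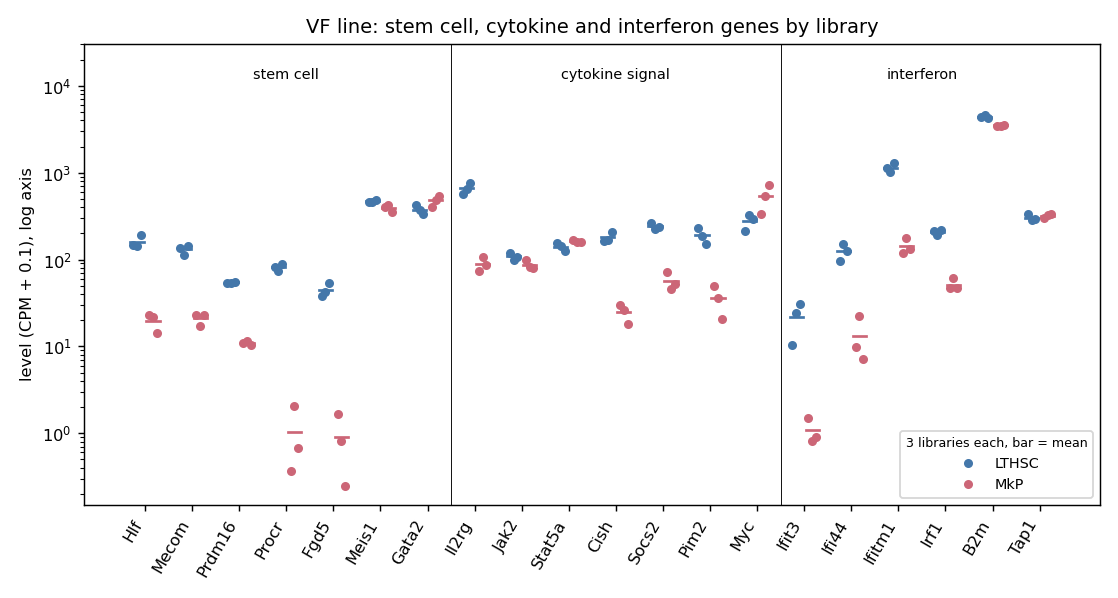
Levels in CPM (plus 0.1, log axis) of stem cell, cytokine signal and interferon genes, with 1 point per library and a bar at the mean of 3, LTHSC in blue and MkP in red. Procr, Fgd5 and Ifit3 fall to near 1 CPM in MkP, Il2rg, Cish and Socs2 are lower without overlap, and Meis1, Gata2, Stat5a and Tap1 lie close together.

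Immediate-early genes, the quick response to growth and stress signals, were more often lower. Of 27 tested 12 (44.4%) were lower and 3 (11.1%) higher, against 21.2% and 19.3% of all tested genes (median log2 -0.53). Dusp1, a phosphatase of MAP kinases, was at 94.3, 66.6 and 90.9 CPM in LTHSC and 33.6, 25.9 and 26.5 CPM in MkP (log2 -1.55), and Nfkbiz, an inducible NF-kB partner, fell from 21.1 ± 2.29 to 3.22 ± 1.20 CPM (SD, n = 3 each). The growth-arrest gene Btg2 and the RNA decay gene Zfp36l1 went the other way (log2 1.78 and 1.31). Fos and Jun did not pass (log2 -0.76 and 0.13). The fit over all 24 libraries left 4 lower and 1 higher. Of 21 glycolysis genes 5 were higher (3 without LTHSC 2 or 3 or MkP 2) and 7 lower. Of 24 cholesterol synthesis genes 3 were higher and 2 lower (0 lower without LTHSC 1, 4 without MkP 1). Shares higher and lower were 23.8% and 33.3% for glycolysis and 12.5% and 8.33% for cholesterol, against 19.3% and 21.2% of all tested genes. Both lists had medians near 0 whose sign changed with the setting, and over all 24 libraries 2 glycolysis genes were lower and 0 cholesterol genes passed. Ldhb, a lactate dehydrogenase chain, stood out with a fall from 146 ± 36.5 to 24.9 ± 3.42 CPM (SD, n = 3 each; log2 -2.54), and Aldoc, an aldolase, fell by 2.09 on the log2 scale.

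Nearly all cell cycle genes were higher in MkP, against 19.3% of all tested genes. Of 30 DNA replication genes 27 (90%) were higher and 0 lower (median log2 0.65), and of 30 mitosis and cytokinesis genes 28 (93.3%) were higher and 0 lower (median log2 0.97). Mki67, a marker of cycling cells, was at 189, 205 and 173 CPM in LTHSC and at 464, 439.7 and 456 CPM in MkP (log2 1.26, SE 0.10, adjusted p = 9.66e-06). Birc5 (survivin), of the complex that guides chromosomes and cytokinesis, was at 106, 99.7 and 88.3 CPM in LTHSC and at 228, 210.4 and 304 CPM in MkP (log2 1.34, SE 0.15, adjusted p = 7.66e-05). Ccne1, cyclin E1, which starts DNA replication, was at 18.8, 19.1 and 16.3 CPM in LTHSC and at 36.2, 49.5 and 42.3 CPM in MkP (log2 1.24, SE 0.17, adjusted p = 3.09e-04). No LTHSC library reached an MkP library in these 3 genes, and the folds were 2.36 to 2.52. The mitotic kinase genes Plk1 (log2 1.19), Aurkb (log2 1.08) and Cdk1 (log2 1.17) rose. Ect2, the exchange factor that starts the cleavage furrow, was at 31.3, 23.7 and 25.01 CPM in LTHSC and 8.36, 22.99 and 26.9 CPM in MkP (log2 -0.46, adjusted p = 0.324) and, with Kif23 (log2 0.29), did not pass; the other 28 mitosis genes did. Racgap1, the partner of both at the midzone, rose (log2 0.79). In the fit over all 24 libraries 1 replication and 7 mitosis genes were higher and 0 lower.

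Most genes of protein synthesis and respiration were higher in MkP by small amounts. Over all tested genes 19.3% were higher and 21.2% lower. Of 76 nuclear-encoded respiratory chain subunit genes 70 (92.1%) were higher and 0 lower (median log2 0.65), of 82 cytosolic ribosomal protein genes 65 were higher and 0 lower (median log2 0.65), and of 78 mitochondrial ribosomal protein genes 54 were higher and 0 lower (median log2 0.50). Atp5b, a catalytic chain of ATP synthase, rose from 1317 ± 179.7 to 2065 ± 114 CPM, and Cox8a, a cytochrome oxidase subunit, from 154 ± 15.9 to 340 ± 93.8 CPM (SD, n = 3 each). MkP 3 stood above the other MkP libraries for the short ribosomal protein genes: Rplp2 was at 46.8, 48.9 and 38.9 CPM in LTHSC and at 73.0, 70.9 and 183 CPM in MkP (log2 1.28, SE 0.32, adjusted p = 0.00921), with an adjusted p of 0.0511 without a filter on low counts. Rps21 was at 24.3, 25.6 and 22.4 CPM in LTHSC and 39.1, 32.7 and 102 CPM in MkP. MkP 3 also held the most Rn45s, 52170 CPM. Without Rn45s 65 cytosolic ribosomal protein genes were higher (median log2 0.64), and without MkP 3 52 were (median log2 0.36). The count was 43 with scaling to the library total, 38 without LTHSC 2 and 30 without LTHSC 3. In the fit over all 24 libraries no gene of these 3 lists passed, with medians of log2 0.71, 0.71 and 0.56.

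**Figure D4:**
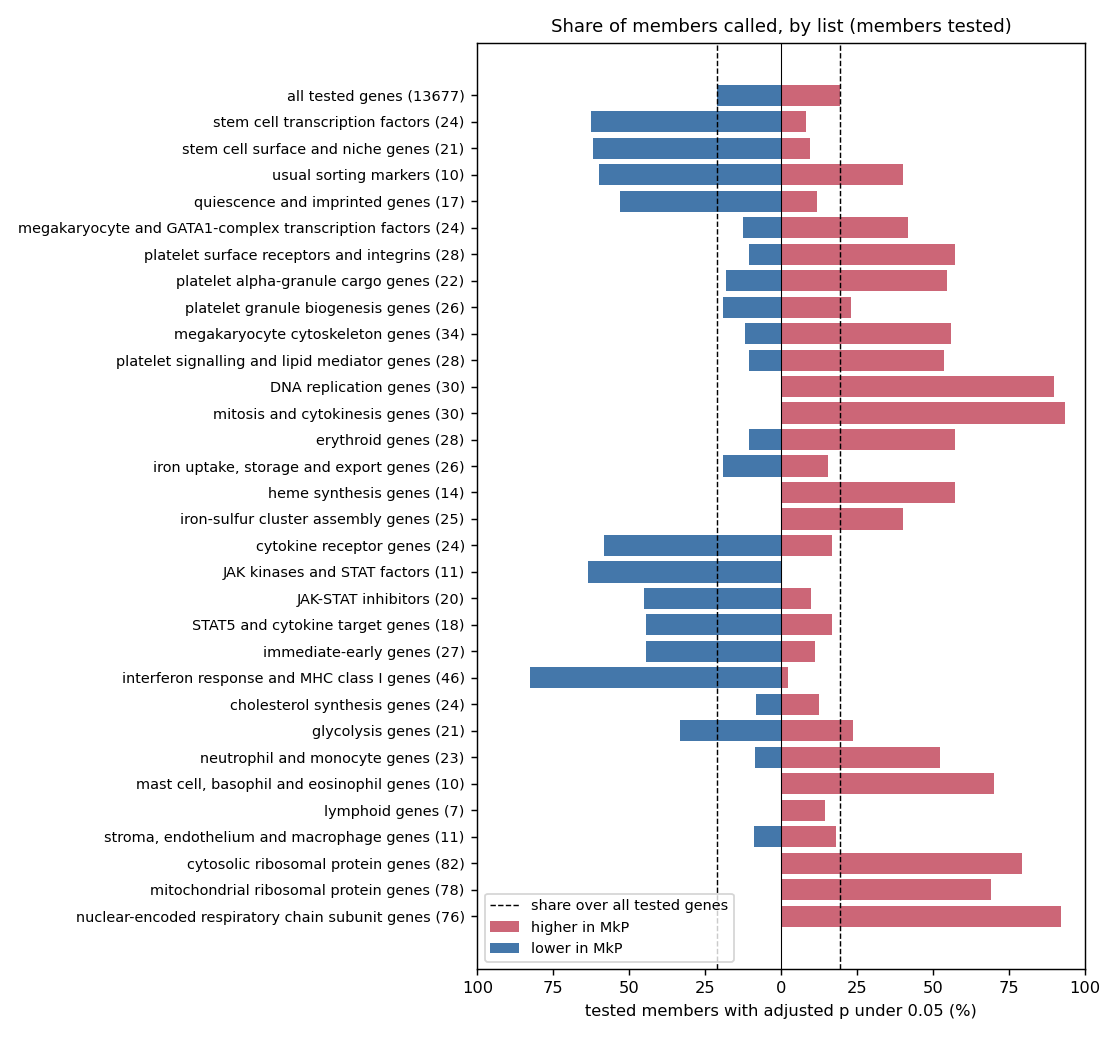
Share of the tested members of each list that passed, in percent, with higher in MkP to the right in red and lower to the left in blue; the number tested stands in brackets and the dashed lines mark the shares of all 13677 tested genes (19.3% and 21.2%). The interferon list reaches 82.6% lower, mitosis genes 93.3% higher and respiratory chain genes 92.1% higher, while iron genes lie near the lines.

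The largest rises among genes of at least 10 CPM, chosen by size, included Mcpt8, Ctsg, Mpo, Elane, Kcnj5, Cst7, Slc35d3, Scin, Csrp3, Mrvi1 and Atp8b4. Kcnj5, a G-protein-gated potassium channel, was at 0.43, 3.39 and 1.18 CPM in LTHSC and at 98.7, 118 and 78.4 CPM in MkP (log2 5.88, SE 0.49, adjusted p = 1.37e-05). Cst7 (cystatin F), an inhibitor of lysosomal proteases, rose from 1.37 ± 0.28 to 77.6 ± 22.7 CPM, and Scin, an actin-severing protein, from 0.22 ± 0.30 to 10.4 ± 2.59 CPM (SD, n = 3 each). Of these, Mcpt8, Ctsg, Mpo and Elane are genes of the neutrophil or basophil lists. In Slc35d3, Mrvi1 and Kcnj5 MkP 1 was not the lowest MkP library. In Csrp3, which codes for the muscle LIM protein, it was, at 9.35, 12.3 and 14.8 CPM.

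The largest losses included Bcam, Vnn1, Efna1, Sdc4, Myof, Gimap4, Procr, Gbp4, Osgin1, Cd74 and Chst2. Bcam, a laminin receptor, was at 15.7, 10.6 and 11.1 CPM in LTHSC and had 0 counts in all 3 MkP libraries, at least 86.6-fold lower against a floor of 3 counts per library. Efna1, the membrane ligand ephrin A1, was at 28.4, 29.3 and 29.3 CPM in LTHSC and at 0.14, 0.051 and 0 CPM in MkP. Myof, a membrane repair protein, was at 40.3, 37.1 and 44.3 CPM in LTHSC and at 0, 0.41 and 0.53 CPM in MkP (log2 -7.03, SE 0.49, adjusted p = 4.54e-06). Gimap4, a GTPase of lymphocyte survival, was at 65.4, 41.5 and 77.7 CPM in LTHSC and at 0.36, 0.56 and 1.10 CPM in MkP (log2 -6.51, SE 0.38, adjusted p = 1.42e-06). Vnn1, a pantetheinase, and Sdc4, a heparan sulfate proteoglycan, were at 0, 0.051 and 0 and 0, 0.41 and 0 CPM in MkP and at 8.75 to 12.4 and 17.8 to 38.2 CPM in LTHSC. Bcam, Efna1, Myof, Gimap4, Vnn1 and Sdc4 were at or near 0 in MkP, so their exact fold is poorly set. Per length, the most abundant genes were B2m, the ubiquitin sequence Gm1821 and Rn45s in LTHSC and Rn45s, Pf4 and Tmsb4x, the actin-sequestering thymosin beta 4, in MkP.

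The pre-MegE libraries of the VF line, progenitors that can still form megakaryocytes and red cells, show where MkP stand on the path. These values were scaled over the 9 VF libraries, differ slightly from those above and are a description without a test. Pf4 was at 166, 116 and 100 CPM in LTHSC, 1442, 443 and 272 in pre-MegE and 3321, 1964 and 2624 in MkP. F2rl2 was at 19.8, 17.3 and 20.7, 73.4, 70.5 and 62.8 and 337, 319.5 and 327 CPM in the same order. Both were intermediate in pre-MegE in every library. Vwf, by contrast, was at 282, 179.8 and 194 CPM in LTHSC, 99.4, 111 and 51.5 in pre-MegE and 626, 384 and 351 in MkP, so pre-MegE lay below both. Meis1, a homeobox factor of stem cells, was at 437, 443 and 460.1 CPM in LTHSC, 196, 119.5 and 136 in pre-MegE and 389, 405 and 339 in MkP. For Vwf, Fli1, Mef2c and Meis1 no pre-MegE library reached the lowest library of either other population.

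Gata1 went the other way, at 87.0, 98.2 and 74.7 CPM in LTHSC, 243, 612 and 399.6 in pre-MegE and 274, 315 and 314 in MkP, where the last 2 overlapped. Klf1 was at 16.5, 21.4 and 18.9, 362, 1118 and 639.9 and 53.2, 116 and 82.2 CPM, highest in pre-MegE in all libraries. The neutrophil gene Mpo was at 11530, 7604 and 7612 CPM in pre-MegE, above all MkP libraries. Mcpt8, at 105, 21.0 and 26.3 CPM, was also higher there than in any MkP library. Stem cell genes were low in pre-MegE as well: Hlf was at 21.2, 7.47 and 12.6 CPM and Procr at 1.86, 1.19 and 1.17 CPM in pre-MegE. Socs2, at 35.1, 12.5 and 17.6 CPM in pre-MegE, lay below every MkP library (68.5, 44.0 and 50.3 CPM). Ifitm1 was at 1849, 734 and 304 CPM in pre-MegE, above every MkP library.

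**Figure D5:**
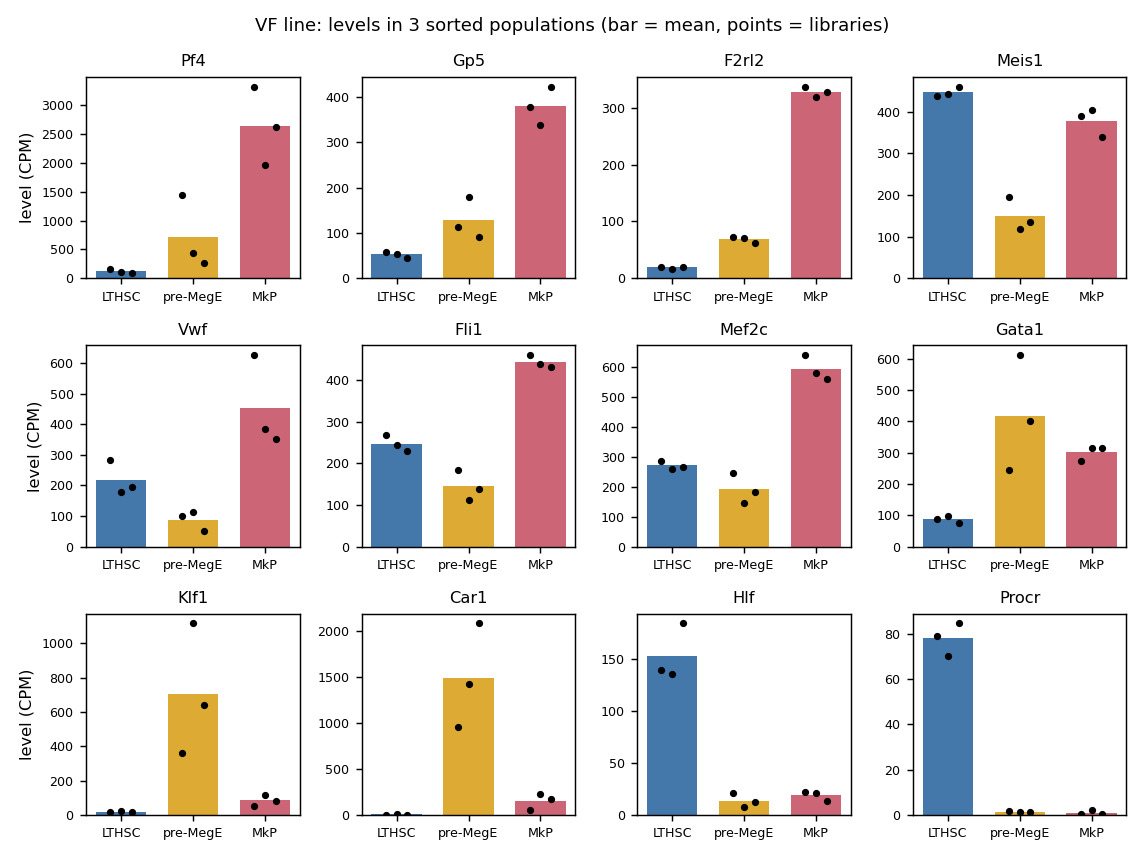
Levels in CPM, scaled over the 9 VF libraries, of 12 genes in LTHSC (blue), pre-MegE (yellow) and MkP (red), with bars at the mean of 3 libraries, points for libraries and axes from 0. Pf4, Gp5 and F2rl2 step up along the path, Meis1, Vwf, Fli1 and Mef2c are lowest in pre-MegE, Gata1, Klf1 and Car1 have their highest mean there, and Hlf and Procr are high in LTHSC.

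Whether the LTHSC to MkP difference of the VF line differs from that of the other lines was tested over the 18 LTHSC and MkP libraries with a shared spread. Against KI 2 of 14659 genes passed (0.0136%; 2513 at an unadjusted p under 0.05), and against E12 1 did (0.00682%; 501 at an unadjusted p under 0.05). In this fit the log2 fold change of F2rl2 was 4.11 in VF, 3.72 in KI and 4.01 in E12. For Hlf it was -3.01 in VF, -2.997 in KI and -3.31 in E12. For Mki67 it was 1.28 in VF, 2.12 in KI and 1.21 in E12. None of these differences between lines passed, which does not show that the lines are alike. Pf4 was at 4.39 in VF, 8.51 in KI and 5.03 in E12, a difference from KI of -4.12 (SE 0.89, adjusted p = 0.0862). Ly6a was at -5.88 in VF, -2.54 in KI and -6.22 in E12 (difference from KI -3.34, adjusted p = 0.0862). Mpo was at 6.30 in VF, 2.88 in KI and -2.07 in E12, and the difference from E12 of 8.38 had an adjusted p of 0.269. In E12 LTHSC Mpo was at 16390 CPM in replicate 4 and at 115 and 129 CPM in replicates 11 and 2. KI MkP 5 and 6 had TMM factors of 0.527 and 0.478, against 1.10 for KI MkP 4. The 3 KI MkP libraries thus differed among themselves.

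The genes that passed were Egr1 and Ppp1r15a against KI and Lrg1 against E12. Egr1, an immediate-early transcription factor, was at 66.6, 43.0 and 42.4 CPM in VF LTHSC and 43.9, 23.1 and 27.6 in VF MkP, against 2457, 1573 and 2190 in KI LTHSC and 75.6, 68.1 and 54.4 in KI MkP. Its difference between lines, log2 4.29 (SE 0.63, adjusted p = 0.0165), stood beside high KI LTHSC levels, and the VF libraries were low in both populations. Ppp1r15a, which ends the integrated stress response, had the same shape, with 121, 85.8 and 100.8 CPM in VF LTHSC, 83.1, 70.8 and 66.9 in VF MkP and 757 to 984 in KI LTHSC (log2 3.45, adjusted p = 0.016). Lrg1, a secreted glycoprotein, was at 1.30 to 2.31 CPM in VF LTHSC and 2.22 to 2.37 in VF MkP, against 16.3 to 19.7 in E12 LTHSC and 0.44 to 1.43 in E12 MkP (log2 4.67, adjusted p = 0.0348). These counts moved strongly with the libraries kept: 3769 genes passed against KI without MkP KI 4, and 0 without VF LTHSC 2 or 3, VF MkP 1, KI LTHSC 1 or KI MkP 5 or 6. Against E12 11 passed without E12 LTHSC 2, and 0 without any VF library, E12 LTHSC 4 or 11 or E12 MkP 4 or 5.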

How the data were processed

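LTHSC and MkP of the VF line were profiled by Smart-seq2, 3 libraries each, grouped by their titles. The authors deposited raw counts per Entrez gene with the gene length, which was used for TPM. Alignment was by STAR 2.7.0c to mm10 and counting by featureCounts of Subread 1.6.4, per the submitters' processing notes; annotation, strand setting and treatment of multiply mapped reads are not given in the sources used here. Reads of a gene and of its antisense partner therefore cannot be told apart. Of 24454 genes 24374 matched RefSeq GRCm38.p6, and 16 rows without a symbol (at most 0.0113% of any of the 6 libraries) were left out. Columns named MEP were read as pre-MegE, by genotype and replicate number. The table had 0 unmapped value columns. Replicate libraries differed by more than sampling noise, with a chi-square over its degrees of freedom of at least 19.8.

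The test was edgeR 4.0.16 under R 4.3.3, with filterByExpr, TMM scaling and a robust, 2-sided quasi-likelihood F test, adjusted by Benjamini-Hochberg at 0.05. It ran on the 6 libraries, and on 18 for differences between lines. The scripts were tested on simulated data. Depth of 20354022 to 23023520 counts left the spread between libraries as the main limit of precision.

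Genes were named by rule: Jak2; the 12 largest changes each way that passed, did not overlap and reached 10 CPM (predicted, pseudo and sex-linked genes left out); the 4 largest per list and direction; the 10 most abundant per length in each population; and the 5 largest each way between lines. Further list members were chosen for their role, with their values seen. The members, the 31 lists and these rules were set with earlier results of these data known. The alternatives were RLE scaling, the library total alone, other filters, DESeq2 1.42.0, limma 3.58.1 with voom, a replicate block, all 24 libraries in the fit, a test against a 2-fold change and the omission of each library. Leaving out Rn45s and the block against E12 were chosen after seeing the data.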

Additional observations from a re-analysis of the deposited data

Results flagged for a closer look

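The LTHSC to MkP difference of the VF line differed from that of KI in Egr1 (difference of log2 4.29) and Ppp1r15a (3.45) and from that of E12 in Lrg1 (4.67), each by the test of the difference itself with an adjusted p under 0.05. Without LTHSC E12 4 and MkP KI 5 and 6, Egr1 no longer passed (4.06, adjusted p = 0.166), Ppp1r15a did (2.89, adjusted p = 0.0152), and Gata1 (-1.79, adjusted p = 0.00199) and E2f8, a cell cycle repressor (-1.73, adjusted p = 0.0152), passed too, but MkP KI was then a lone library assumed to vary like the others. In that fit Lrg1 (4.73), Ly6c2, a monocyte antigen (3.97), and Prtn3, a neutrophil protease (2.48), passed against E12.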

How the results depend on the processing

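The comparison of MkP with LTHSC gave 5538 genes, 2636 higher and 2902 lower. The counts stayed within 1.5 times of this with RLE scaling, library size alone, other filters, DESeq2, limma voom and without Rn45s, and leaving out each library gave 4014 to 5442 genes, 1840 to 2520 higher and 2174 to 2922 lower. They did not in the fit over all 24 libraries (817, with 239 higher and 578 lower; 104 of 201 named genes no longer passed) or in the test against a 2-fold change (1168, with 249 higher and 919 lower; 100 of 201 no longer passed). The cause was not tested. No named gene reversed its direction in these alternatives.

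With the replicate number as a block, 5595 genes passed. Deviations of same-numbered libraries correlated at 0.134, 0.0771 and 0.107, and those of all other pairs at -0.0909 to -0.0195. Each library thus correlated best with its own number. Xist was high in replicate 2 of both populations only (508.7 CPM in LTHSC 2 and 619 CPM in MkP 2). No label ties a number to an animal and not all correlations were over 0.1, so the main test left the numbers out. Whether same-numbered libraries share a source was not tested. With the block Jak2 passed (adjusted p = 0.0336).

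Against KI 2 genes passed, with 0 by library size alone, 1133 by DESeq2 and 0 to 3769 when a library was left out. Against E12 1 passed, with 0 by library size alone, 42 by DESeq2, 2 with only the 12 libraries of both lines, 3 without LTHSC E12 4 and MkP KI 5 and 6, and 0 to 11 when a library was left out. List medians changed sign for cholesterol genes (log2 0.10; -0.04 by library size alone, -0.05 without MkP 1), glycolysis genes (-0.04; 0.02 over 24 libraries or without MkP 3, 0.03 without LTHSC 1) and stroma genes (0.63; -0.52 without a filter, -0.29 without MkP 3). Against KI no paired analysis was possible because KI LTHSC and KI MkP share no replicate number. Against E12 a replicate block over the 10 VF and E12 libraries with a shared number passed 0 genes (1076 at an unadjusted p under 0.05), with Lrg1 at 4.46 (adjusted p = 0.53 by edgeR).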

Other observations

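Replicate 2 of both VF populations differed from replicates 1 and 3 in sex-linked RNA. Xist, the RNA of the inactive X, was at 508.7 CPM in LTHSC 2 and 619 CPM in MkP 2, and at 1.44 to 4.52 CPM in the other 4 libraries. The Y-linked gene Ddx3y was present in all 6 libraries, at 72.9 to 103 CPM in LTHSC and 49.4 to 58.6 CPM in MkP. Neat1, a nuclear RNA of paraspeckles, fell by 0.75 on the log2 scale from LTHSC to MkP (119 to 139.9 CPM and 70.4 to 91.7 CPM; adjusted p = 0.0012).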
